A study of Mus musculus with 9 samples.

Results

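The arrays that carry replicate number 1 were compared with those that carry numbers 2 and 3 across BaF3 cells transformed by 3 leukaemia fusion kinases. BaF3 is a mouse haematopoietic line that depends on interleukin-3. The cells had been infected with a retrovirus for BCR-ABL (written BCR-ABL1P210 in the design text), BCR-RET or FGFR1OP-RET and sorted on EGFP fluorescence. Each fusion had 3 arrays, numbered 1, 2 and 3 in the sample titles, so the comparison set 3 arrays of number 1, 1 from each fusion, against 6 arrays of numbers 2 and 3, out of 9 arrays in all. No other difference between the numbers is in the labels, and all 9 arrays share the cell line, the retroviral infection and the sort. The labels do not say what a replicate number stands for, nor whether arrays of 1 fusion came from separate cultures or infections. The p-values below therefore measure only how far these arrays scatter, and that scatter may be technical. Cells without a fusion were not analysed here.

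Several gene programmes with a known response to growth conditions serve to describe such a difference. When oxygen is short, the alpha subunits of hypoxia-inducible factor (HIF) escape prolyl hydroxylation and degradation, and HIF binds short elements in genes of glucose uptake, glycolysis, angiogenesis and histone demethylation. Immediate early genes such as Fos and Jun are transcribed within minutes of growth factor or stress signalling without new protein synthesis, the transcription factor ATF4 drives amino acid supply genes and the stress regulators Ddit3 and Trib3, and sterol-sensing SREBP factors drive cholesterol synthesis. Interleukin-3 and the fusion kinases both feed growth and survival signalling in BaF3 cells.

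Values are log2 signals of Affymetrix MouseGene 1.0 ST arrays for 19938 genes. A difference is number 1 minus numbers 2 and 3 with the fusion in the model, and a gene was counted as passed where its limma p, adjusted by Benjamini and Hochberg's method, was under 0.05. All adjusted p-values below are from that fit unless stated otherwise. Medians of the 9 arrays lay between 8.01 and 8.04, and arrays of the same fusion correlated with r between 0.993 and 0.996. Neither of the genes read here for the receptor through which interleukin-3 acts passed. Its alpha chain Il3ra had mean log2 signals of 10.53 in number 1 and 10.36 in numbers 2 and 3 (adjusted p = 0.125), and its beta chain Csf2rb had 12.44 and 12.53 (adjusted p = 0.549). The genes of the fusion partners did not pass either. The differences were 0.06 for Ret (adjusted p = 0.574), 0.20 for Bcr (0.116), -0.04 for Abl1 (0.769) and -0.01 for Cep43, the mouse gene of FGFR1OP (0.961). Mouse probes need not report the retroviral transcripts, so this does not measure the level of the fusions.

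Number 1 differed from numbers 2 and 3 in 1224 genes, which is 6.14% of the genes tested. Of these, 455 genes (2.28%) were higher in number 1 and 769 (3.86%) were lower. The changes were small: the median size among the genes that passed was 0.29 on the log2 scale, and 34 of the higher and 54 of the lower genes differed by 0.5 or more. All 1224 genes kept the sign of their difference in each of the 3 fusions. In 455 of the higher and 766 of the lower genes, the number 1 array lay beyond both other arrays of its fusion in every fusion. Over all genes tested, that pattern was found in 8.38% (higher) and 12.5% (lower). The fit itself favours genes with a like difference in every fusion, so the shared sign and order of the 1224 are a description of the genes it chose and no separate evidence. Among the same 1224, ranges of the 3 and the 6 arrays did not overlap at all in 289 higher and 355 lower genes. That count was not made over all genes, so it too only describes the chosen ones. Among the 4985 genes with the highest mean signal, 155 were higher and 460 lower, with a median difference of -0.06. Among the 4985 with the lowest signal, 9 were higher and 12 lower.

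Both other numbers were set against number 1 in a fit with 3 number levels, in which the 2 comparisons share the number 1 arrays. Number 1 differed from number 2 in 157 genes (0.787%), 92 higher and 65 lower. It differed from number 3 in 1964 genes (9.85%), 634 higher and 1330 lower. Between numbers 2 and 3, 1 gene passed (0.00502%), the granule protease gene Ctsg, which was lower in number 2; 1374 genes had an unadjusted p under 0.05.

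The first principal component of the values, after centring each gene on its fusion, held 48.8% of the variance. The number 1 arrays scored 10.5 for BCR-ABL, 14.2 for BCR-RET and 10.6 for FGFR1OP-RET. Number 2 scored -3.1, -5.3 and 3.4 in the same order, and number 3 scored -7.4, -8.9 and -14.0. On this component each number 1 array was the highest of its fusion. The FGFR1OP-RET replicate 2 array stood on the side of number 1, unlike the other arrays of number 2. Counts of genes that differ by over 0.5 between single arrays also set that fusion apart from the others. In BCR-ABL, 99 genes did so between numbers 1 and 2, 238 between 1 and 3 and 58 between 2 and 3, and in BCR-RET these were 252, 465 and 155. In FGFR1OP-RET they were 222, 642 and 284, so there number 2 lay closer to number 1 than to number 3, and number 3 was the array farthest from both others.

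**Figure D1:**
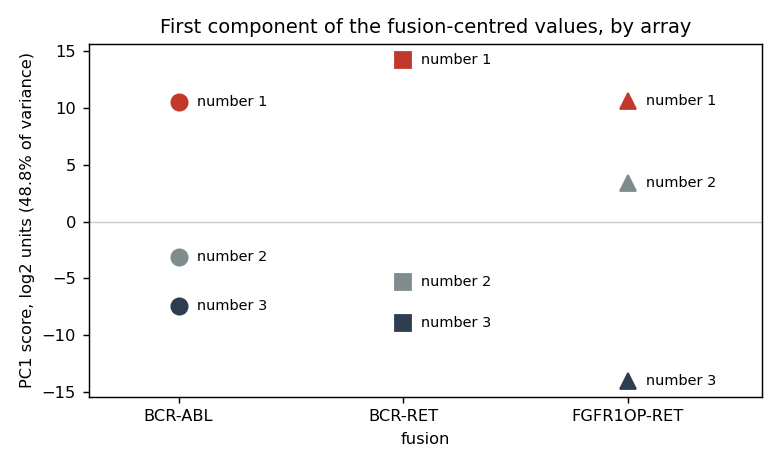
Scores of the 9 arrays on the first principal component of the fusion-centred log2 values (y axis, log2 units) for each fusion (x axis), coloured by replicate number. The 3 number 1 arrays score from 10.5 to 14.2, and the number 2 array of FGFR1OP-RET, at 3.4, is the single other array above 0.

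The difference could be read separately in each fusion, since those estimates share no array, although all arrays were normalised together. Across the 19938 genes, which are not independent of each other, the number 1 differences correlated with r = 0.617 between BCR-ABL and BCR-RET, 0.498 between BCR-RET and FGFR1OP-RET and 0.382 between BCR-ABL and FGFR1OP-RET. Genes chosen in 1 fusion alone could be followed in the others. Of 38 genes at least 0.5 higher in number 1 of BCR-ABL, 34 (89.5%) were above 0 in BCR-RET and 34 in FGFR1OP-RET, against 54.1% and 41.3% of all genes. Of 192 genes at least 0.5 lower in BCR-RET, 186 (96.9%) were below 0 in BCR-ABL and 179 (93.2%) in FGFR1OP-RET, against 49.6% and 58.4% of all genes. Over the 12 such readings, 76.3% to 96.9% of the chosen genes had the same sign. The 259 higher and 736 lower genes that passed without any FGFR1OP-RET array were read in those unused arrays. There, 238 (91.9%) of the higher and 681 (92.5%) of the lower genes had the same sign, with median differences of 0.29 and -0.22. No gene passed for a difference between the fusions in this contrast (limma moderated F test over the 3 fusions), and 693 genes had an unadjusted p under 0.05. Within 1 fusion, where number 1 is a single array and its spread is assumed to be that of the other arrays in the fit, no gene passed, with 1548, 2443 and 2134 genes at an unadjusted p under 0.05 in BCR-ABL, BCR-RET and FGFR1OP-RET.

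These counts rest on few arrays. Without BCR-RET replicate 1 only 9 genes passed, and without FGFR1OP-RET replicate 1 63 passed. Leaving out BCR-ABL replicates 1, 2 or 3 left 219, 664 and 298, leaving out BCR-RET replicates 2 or 3 left 460 and 331, and without FGFR1OP-RET replicate 3 816 passed. Without FGFR1OP-RET replicate 2, the array that stood nearest to number 1, 2791 genes passed. With all arrays of BCR-ABL or all of BCR-RET left out, none passed in the limma fit; with those of FGFR1OP-RET left out, 995 did, of which 638 were among the 1224.

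Hypoxia genes made up the list with the largest share of higher genes. Of 37 measured genes in the list of the HIF response, 13 (35.1%) were higher in number 1 and none of the list was lower. Over all genes these shares were 2.28% and 3.86%. The list median was 0.13 against 0.00 for all genes, with medians of 0.10, 0.14 and 0.11 in BCR-ABL, BCR-RET and FGFR1OP-RET. The 13 were Ankrd37, Ddit4, Kdm3a, Vegfa, Ndrg1, Kdm4b, Slc2a1, Mxi1, Gys1, Insig2, Ankzf1, P4ha1 and Ero1a, with differences from 1.13 down to 0.20. Slc2a1 is also counted in the glycolysis list. Pgk1, a HIF target that the glycolysis list holds and this one does not, passed as lower (-0.18, adjusted p = 0.0485). The lists were chosen with earlier results of these data known, so the counts depend on how they were drawn. Over the 37 genes, the mean log2 signal per array was 10.14 to 10.27 in number 1 and 9.96 to 10.14 in the others. Without BCR-RET replicate 1 or FGFR1OP-RET replicate 1, 1 member passed, without BCR-ABL replicate 1, 2 or 3 there were 5, 8 and 7, without BCR-RET replicate 3 there were 6 and without FGFR1OP-RET replicate 3 there were 8.

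Ankrd37, an ankyrin-repeat gene that HIF induces, had the largest difference of any gene that passed. Its log2 signal in number 1 was 10.02, 10.11 and 10.17 in BCR-ABL, BCR-RET and FGFR1OP-RET, and the 6 other arrays ran from 8.76 to 9.15 with a median of 8.97. The number 1 arrays were all above the other 6, by a log2 difference of 1.13 (SE 0.08, a fold of 2.19, adjusted p = 0.00162). Its call held without each array in turn, with adjusted p up to 0.0225.

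Ddit4, which encodes REDD1, an inhibitor of mTORC1 that hypoxia and energy stress induce, had signals of 10.84, 11.23 and 11.30 in number 1. The other arrays ran from 9.83 to 10.63 with a median of 10.24. All number 1 arrays were above all others, and the difference was 0.84 (SE 0.12, a fold of 1.79, adjusted p = 0.00802; 0.0888 without BCR-RET replicate 1).

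Kdm3a and Kdm4b encode histone lysine demethylases whose genes are HIF targets. Kdm3a was at 11.19, 11.24 and 11.34 in number 1 and from 10.56 to 10.82 in the others (difference 0.56, SE 0.07, adjusted p = 0.00485). Kdm4b was at 10.57, 10.75 and 10.87 against 10.09 to 10.52 (difference 0.45, SE 0.06, adjusted p = 0.00802). Both genes were apart in all arrays. Vegfa, the angiogenic growth factor, was at 11.53, 11.42 and 11.64 in number 1 against 10.82 to 11.10 in the others (difference 0.56, SE 0.09, adjusted p = 0.0109). Ndrg1, a stress-responsive gene, differed by 0.51 (SE 0.07, adjusted p = 0.00786), with number 1 at 12.65, 12.83 and 12.92 and the others at 12.10 to 12.59. Neither of these ranges overlapped.

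The other 24 hypoxia genes did not pass, and among them are several textbook HIF targets. The differences were -0.01 for the mitophagy receptor Bnip3, -0.04 for the oxygen sensor Egln1, -0.03 for its relative Egln3 and -0.07 for the pyruvate dehydrogenase kinase Pdk1. Car9, a carbonic anhydrase, was at -0.17 (adjusted p = 0.0916) and Adm, the peptide adrenomedullin, at 0.12 (adjusted p = 0.237). Over the 24, differences ran from -0.18 (Cited2) to 0.27 (Higd1a). The transcript of Hif1a, the HIF alpha subunit, which was outside the list and was looked up after the values were seen, was lower in number 1. It was at 11.80, 11.82 and 11.90 against 12.01 to 12.33, without overlap (difference -0.27, SE 0.06, adjusted p = 0.0272), while the protein, which oxygen controls, was not measured. Hilpda, a lipid droplet gene that hypoxia induces and that was likewise looked up afterwards, was higher by 0.59 (adjusted p = 0.0119).

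Promoters of the hypoxia genes were searched in the RefSeq windows of 300 bases, 250 before and 50 after each start site, on mouse assembly GRCm38.p6. The HIF core was taken as ACGTG or GCGTG on either strand, where overlapping matches count separately. It was found in 10 of the 11 higher members with a window (90.9%), in 18 of the 20 other members with one (90%) and in 55.3% of the 15614 genes tested that have one. The core was thus as frequent in members that did not pass as in those that did. The windows of 3 higher members, chosen as genes of different roles, are shown for the 250 bases before the start site, with core matches in capitals. The arrays hold no measure of binding.
Ankrd37, difference 1.13, chr8:45999851-46000100, minus strand: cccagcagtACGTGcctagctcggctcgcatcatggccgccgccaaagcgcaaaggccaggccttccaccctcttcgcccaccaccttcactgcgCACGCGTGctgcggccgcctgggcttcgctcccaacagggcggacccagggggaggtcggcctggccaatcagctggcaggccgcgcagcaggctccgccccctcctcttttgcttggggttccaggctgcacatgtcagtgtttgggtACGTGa
Ddit4, difference 0.84, chr10:59951771-59952020, minus strand: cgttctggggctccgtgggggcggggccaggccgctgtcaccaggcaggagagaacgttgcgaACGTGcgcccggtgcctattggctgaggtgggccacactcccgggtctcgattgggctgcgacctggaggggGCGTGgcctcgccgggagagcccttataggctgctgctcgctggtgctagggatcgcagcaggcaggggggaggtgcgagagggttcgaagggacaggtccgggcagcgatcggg
Slc2a1, difference 0.28, chr4:119108495-119108744, plus strand: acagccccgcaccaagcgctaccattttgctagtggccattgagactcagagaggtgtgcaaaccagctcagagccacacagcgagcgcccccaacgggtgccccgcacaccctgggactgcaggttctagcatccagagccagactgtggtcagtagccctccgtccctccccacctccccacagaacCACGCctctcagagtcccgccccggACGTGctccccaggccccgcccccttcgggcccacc
The Ankrd37 window held 4 matches, of which 2 overlap, and those of Ddit4 and of the glucose transporter gene Slc2a1 held 2 each.

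Glycolysis genes did not move as a body. Of 16 measured, 3 (18.8%) were higher and 1 (6.25%) lower, beside 2.28% and 3.86% of all genes. The list median was 0.02. The higher genes act at the entry of the pathway. Hk2, the inducible hexokinase, was at 11.39, 11.64 and 11.78 in number 1 and from 10.55 to 11.30 in the others, without overlap (difference 0.80, SE 0.13, adjusted p = 0.0137). Without BCR-RET replicate 1 its adjusted p was 0.152. Slc2a1, which imports glucose, was higher by 0.28 (SE 0.06, adjusted p = 0.0362) and the phosphofructokinase gene Pfkp by 0.23 (SE 0.05, adjusted p = 0.0336). Pgk1, which acts further down and is itself a textbook HIF target, was lower, at 13.61, 13.65 and 13.64 against 13.72 to 13.89 (difference -0.18, SE 0.05, adjusted p = 0.0485). The abundant enzymes Ldha (-0.04), Aldoa (-0.07) and Pkm (0.14) did not pass.

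**Figure D2:**
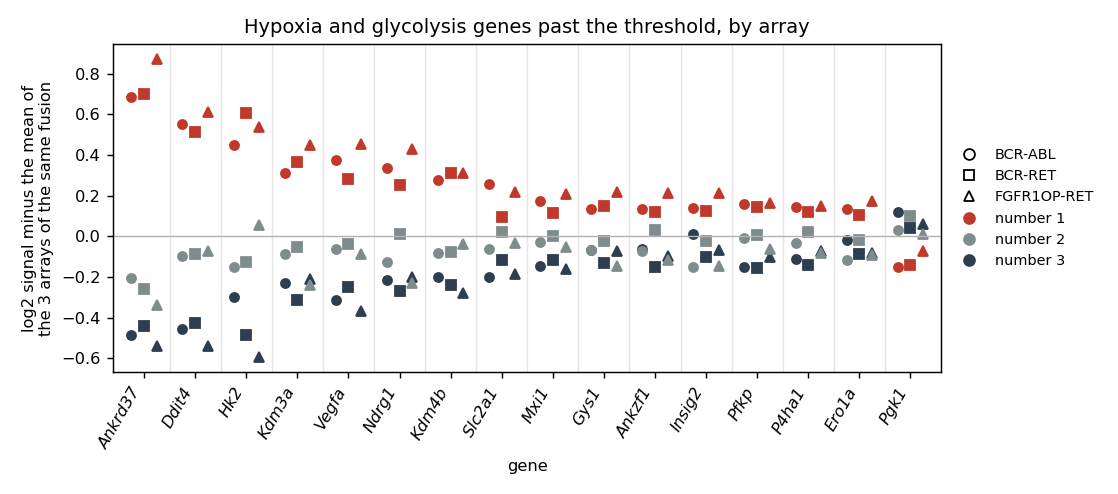
Log2 signal of each array minus the mean of the 3 arrays of its fusion (y axis) for the genes of the hypoxia and glycolysis lists that passed (x axis), with colours for the replicate number and shapes for the fusion. In all but Pgk1, the number 1 arrays are the highest of their fusion, from Ankrd37 with a difference of 1.13 to Ero1a with 0.20.

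Immediate early genes were the second list with many higher members. Of 25 measured, 7 (28%) were higher in number 1 and 1 (4%) was lower, beside 2.28% and 3.86% of all genes. The list median was 0.10, and 21 members (84%) were above 0 beside 49.8% of all genes. The list medians were 0.17 in BCR-ABL, 0.11 in BCR-RET and 0.05 in FGFR1OP-RET, and their difference was not tested. Without BCR-RET replicate 1 no member passed as higher in the limma fit, without FGFR1OP-RET replicate 1 there was 1, and without BCR-ABL replicate 1 there were 4. The higher members included 4 genes of the AP-1 transcription factor. Jun was at 10.13, 10.17 and 10.33 in number 1 against 9.62 to 10.01 in the others, with no overlap (difference 0.44, SE 0.06, adjusted p = 0.00951). Fosb was at 9.02, 9.12 and 8.84 against 8.35 to 8.66, also with no overlap (difference 0.52, SE 0.08, adjusted p = 0.0122). Fos and Fosl2 were higher by 0.43 (adjusted p = 0.0232) and 0.38 (adjusted p = 0.00908). Among the rest were Ier5 (0.36), the antiproliferative gene Btg2 (0.44) and the small MAF factor Maff (0.32). Klf10, a TGF-beta-induced factor, was lower by 0.22 on the log2 scale.

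Other genes of the same class did not pass. Egr1 was at 0.00, Nr4a1 at -0.01, Atf3 at 0.00 and Dusp1, a MAP kinase phosphatase, at -0.15 (adjusted p = 0.101). Dusp6 and Dusp4, phosphatases that restrain ERK, were higher by 0.32 (adjusted p = 0.0326) and 0.28 (adjusted p = 0.022). They were the 2 higher genes of 20 ERK feedback genes (10%, beside 2.28% of all genes). None of the 20 was lower, and the median of that list was 0.00. Of 19 STAT5 targets, Id1 was higher by 0.34 and Socs2, a feedback inhibitor of cytokine signalling, lower by 0.29.

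Of 36 ATF4 targets, 6 (16.7%) were higher and 1 (2.78%) lower, beside 2.28% and 3.86% of all genes. The list median was 0.01. Without BCR-RET replicate 1 or FGFR1OP-RET replicate 1 no member passed as higher, and without BCR-ABL replicate 1 or BCR-RET replicate 2 there were 3. The count was 3 for number 1 against number 2 alone, 2 without the FGFR1OP-RET arrays and 0 with the fusion left out of the fit. Ddit3, the CHOP transcription factor, differed by 0.38 (adjusted p = 0.0336), and Trib3, a pseudokinase that binds ATF4, by 0.50 (adjusted p = 0.0266). Nupr1 (0.46), Cebpg (0.33, adjusted p = 0.00831), the hormone gene Fgf21 (0.30) and Ddit4, which the hypoxia list also holds, made up the rest. Among members that did not pass were the amino acid synthesis genes Asns (-0.18) and Psat1 (-0.11), the transfer RNA charging gene Gars (-0.04) and Atf4 itself (0.00). Slc7a11, the cystine transporter, was lower, at 10.18, 10.09 and 10.72 against 10.57 to 11.41 (difference -0.59, SE 0.08, adjusted p = 0.00661). It was below both other arrays in each fusion, while the ranges over the 3 and 6 arrays overlapped.

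**Figure D3:**
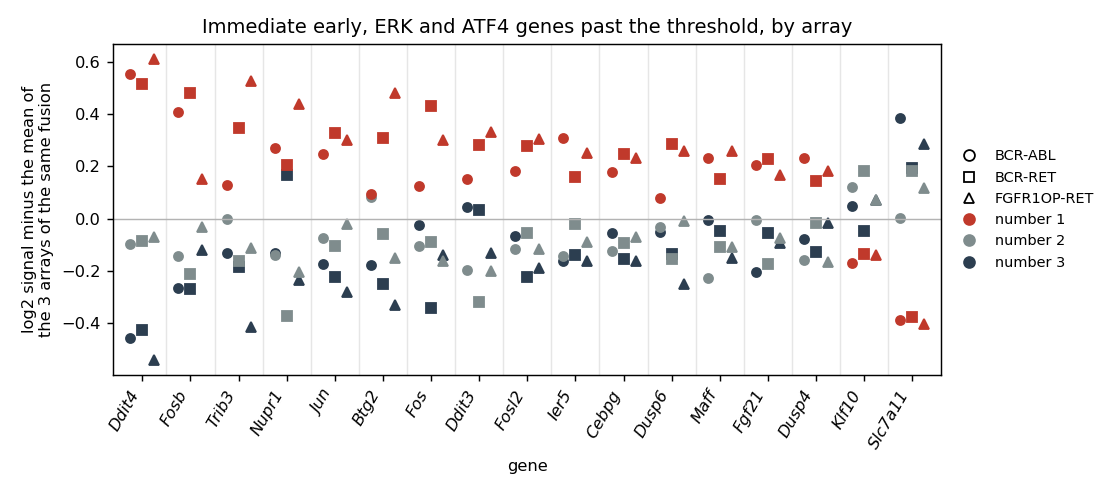
Log2 signal of each array minus the mean of the 3 arrays of its fusion (y axis) for the immediate early, ERK and ATF4 list genes that passed (x axis). Klf10 and Slc7a11 are the genes with number 1 below the other numbers, and Ddit4, at 0.84, has the largest difference.

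In other stress programmes few members passed. Of 22 unfolded protein response genes none was higher and 1 was lower, Dnajb9, an ER chaperone partner (-0.53, adjusted p = 0.0247). In the heat shock list Hsph1 alone passed (0.39, adjusted p = 0.0229) among 15 genes. NRF2 targets had Hmox1, haem oxygenase, higher by 0.30 and Nqo1 lower by 0.30, next to Slc7a11, among 21 (4.76% higher and 9.52% lower). The median of that list was -0.08, and 4 members (19%) were above 0, beside 49.8% of all genes. Of the 4985 genes of highest signal, 32.8% were above 0, with a median of -0.06. Of 23 p53 targets 2 were higher and 2 lower (8.7% each), beside 2.28% and 3.86% of all genes. The FOXO list of 24 genes had 2 higher (8.33%) and 3 lower (12.5%). Ccng2, a cyclin linked to cell cycle arrest, was higher by 0.67 (SE 0.07, adjusted p = 0.00281) and Foxo3 by 0.25, and Arrdc3, Sesn1 and Klf6 were lower. Ccng2 was at 9.88, 10.25 and 10.32 against 9.24 to 9.79 and kept its call without each array in turn.

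Of 20 cholesterol synthesis genes measured, 5 (25%) were lower in number 1, none was higher and 15 did not pass. All genes had 3.86% lower and 2.28% higher, and the 4985 genes of highest signal had 9.23% lower. The list median was -0.16. In BCR-ABL 1 of the 20 was above 0, in BCR-RET 2 and in FGFR1OP-RET 5, with medians of -0.20, -0.19 and -0.06. Hsd17b7, which reduces a sterol ketone, was at 9.80, 9.78 and 9.68 in number 1 and 10.02 to 10.52 in the others (difference -0.53, SE 0.08, adjusted p = 0.00989). Insig1, a brake on SREBP activation whose gene SREBP itself induces, was at 11.52, 11.60 and 11.70 against 11.85 to 12.10 (difference -0.32, SE 0.05, adjusted p = 0.0134). Both were below every other array. Fdft1, squalene synthase, differed by -0.35 (adjusted p = 0.0279), the sterol dehydrogenase gene Nsdhl by -0.33 (adjusted p = 0.028) and Hmgcs1, which makes HMG-CoA, by -0.19 (adjusted p = 0.0491). None of the 5 passed without BCR-ABL replicate 1, BCR-RET replicate 1 or FGFR1OP-RET replicate 1, and 11 members did without FGFR1OP-RET replicate 2. Leaving out BCR-ABL replicate 2 left 3 members, and leaving out BCR-ABL replicate 3, BCR-RET replicate 2 or BCR-RET replicate 3 left 2 each.

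A sterol element, TCACNCCAC on either strand, was present in the windows of 1 of 4 lower members with one, of 0 of 12 other members and of 1.4% of all genes. That member was Hmgcs1, whose 250 bases before the start site are shown with the element in capitals, since it is the single match in the list.
Hmgcs1, difference -0.19, chr13:119690101-119690350, plus strand: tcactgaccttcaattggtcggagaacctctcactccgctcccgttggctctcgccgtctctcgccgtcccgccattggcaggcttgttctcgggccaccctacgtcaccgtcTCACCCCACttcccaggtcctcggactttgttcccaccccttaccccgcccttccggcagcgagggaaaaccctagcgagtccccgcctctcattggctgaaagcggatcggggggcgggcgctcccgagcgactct
A list of 1 gene with a match allows no comparison between genes that passed and genes that did not.

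Lysosome and autophagy genes had 4 lower and no higher members of 27 (14.8% lower), with a median of -0.07, where all genes had 3.86% lower and a median of 0.00. They were the protease Ctsb (-0.25, adjusted p = 0.0209), the membrane protein Lamp2 (-0.30, adjusted p = 0.0411), the autophagosome protein Map1lc3b (-0.30, adjusted p = 0.0412) and Rragc, a GTPase that brings mTORC1 to lysosomes (-0.21, adjusted p = 0.049). DNA replication genes also had 4 lower members, of 32 (12.5%), and none higher, with a median of -0.07 and 5 members above 0. These values lie near those of the 4985 genes of highest signal, of which 9.23% were lower with a median of -0.06. Rfc4, of the clamp loader, was lower by 0.41, the chromatin assembly gene Chaf1b by 0.34, the licensing factor Cdt1 by 0.25 and the helicase subunit Mcm4 by 0.24 on the log2 scale. Both counts moved with the processing and with single arrays. Centring each array on its median left 2 members in each list, and leaving out low or repeated values gave 8 lysosome and 6 replication members. For number 1 against number 2 alone there were 0 in each list, and against number 3 alone 6 in each. With the fusion left out of the fit, 1 member of each list passed as lower. Without BCR-RET replicate 1 no member of either list passed as lower. Without BCR-ABL replicate 1, BCR-ABL replicate 3, BCR-RET replicate 3 or FGFR1OP-RET replicate 1 there were 0 lysosome members and 1 replication member each time. Without BCR-ABL replicate 2 there were 2 and 1, and without BCR-RET replicate 2 there was 1 in each. FGFR1OP-RET replicate 3 left 3 and 2 when omitted, and FGFR1OP-RET replicate 2 left 9 in each. Mitosis genes had 1 higher (Anln) and 2 lower (Cenpa, Kif20a) of 30 (3.33% and 6.67%, beside 2.28% and 3.86% of all genes). None of 34 MYC and ribosome biogenesis genes and none of 20 ribosomal protein genes passed, in either direction, with medians of -0.02 and 0.02. Cdkn2c, an inhibitor of CDK4 and CDK6, was lower by 0.32 among 17 cyclin D and CDK inhibitor genes (5.88% lower, beside 3.86% of all genes). In 6 further lists, 1 gene or none passed. Those that did were Oas1a, an antiviral synthetase, lower among 25 interferon response genes (-0.26), Nfkb2 higher among 19 NF-kB targets (0.20), the respiratory subunit gene Cox7a2 lower among 21 respiration genes (-0.29) and H2bc4 among 23 histone genes. None of 12 fatty acid synthesis genes and none of 16 BCL2 family genes passed, with medians of -0.03 and 0.00, and of the mitochondrially encoded transcripts 1 was measured, which did not pass.

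Some genes of myeloid granules and receptors were among the 12 lowest named genes. Mcpt8, a basophil granule protease, was at 8.38, 8.31 and 9.34 in number 1 and from 8.95 to 10.53 in the others, with a median of 9.81. The FGFR1OP-RET array of number 1 lay inside the range of the others, but each number 1 array was the lowest of its fusion (difference -1.10, SE 0.23, a fold of 2.14, adjusted p = 0.0272). Ly96, the partner of Toll-like receptor TLR4, differed by -1.08 (SE 0.27, adjusted p = 0.0451), with number 1 at 8.57, 9.10 and 8.46 and the others from 8.88 to 10.61. Ctsg, cathepsin G of neutrophil precursors, was at 8.12, 8.77 and 9.37 against 8.45 to 10.60 (difference -0.85, SE 0.21, adjusted p = 0.0461). In all 3 genes the FGFR1OP-RET, BCR-RET and BCR-ABL arrays of number 2 lay between those of numbers 1 and 3 of the same fusion. Mpo, myeloperoxidase, was lower by 0.64 (SE 0.12, adjusted p = 0.021), Trem3 by 0.78 (adjusted p = 0.0283) and Ms4a3, a marker of granulocyte and monocyte progenitors, by 0.72 (adjusted p = 0.0408). The calls of Mcpt8, Ly96 and Ctsg were lost without 6, 7 and 7 of the 9 arrays, with adjusted p up to 0.23, 0.255 and 0.272.

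As a list, 2 of 17 granulocyte markers (11.8%), Mpo and Ctsg, were lower and none was higher, beside 3.86% and 2.28% of all genes. The median of the granulocyte list was -0.11, with array means from 9.09 to 9.67 in number 1 and from 9.19 to 10.03 in the others. Elane (-0.35, adjusted p = 0.17), S100a8 (-0.38, adjusted p = 0.107) and Ngp (-0.32, adjusted p = 0.0788) did not pass, and Camp, Mmp8 and S100a9 were at 0.06, 0.02 and 0.03. Of 14 mast cell and basophil markers Mcpt8 was lower and Gata2, a transcription factor of progenitors and mast cells, higher (0.23, adjusted p = 0.0357). That is 7.14% each way, beside 3.86% lower and 2.28% higher of all genes. The genes Fcer1a and Ms4a2, for the defining receptor of these cells, had mean log2 signals of 5.02 and 4.81 in number 1. None of the 17 monocyte and macrophage markers passed (median -0.03), nor did any of 16 B lymphoid, 13 T and NK, 11 erythroid and megakaryocyte or 17 fibroblast and stroma markers. In RNA from whole cultures, fewer cells that express these genes and less RNA per cell cannot be told apart.

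**Figure D4:**
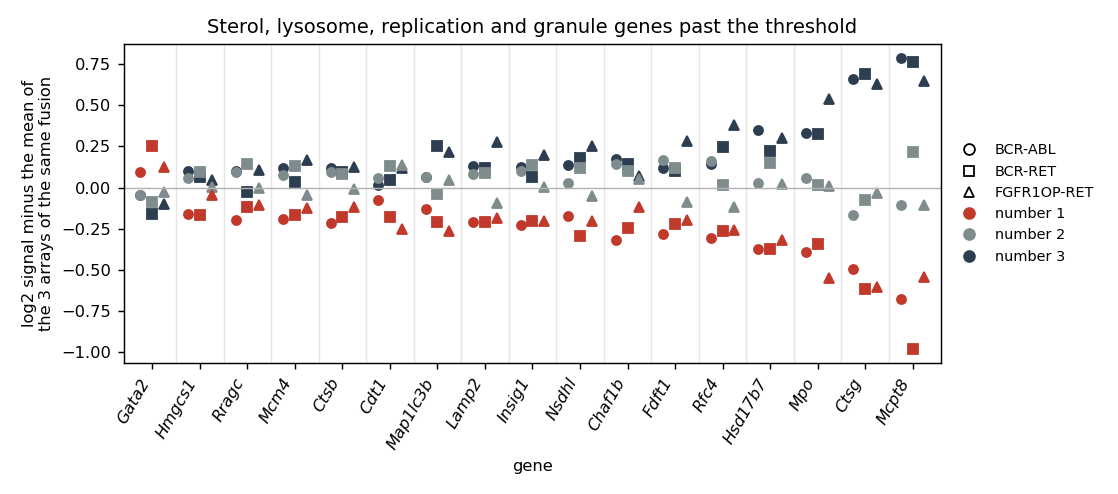
Log2 signal of each array minus the mean of the 3 arrays of its fusion (y axis) for genes that passed in the cholesterol, lysosome, DNA replication, granulocyte and mast cell or basophil lists (x axis). Gata2 is the gene with number 1 above the others, and Mcpt8, at -1.10, has the widest spread.

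Outside the lists, several genes had large differences with little overlap. Ccnb1ip1, a ubiquitin ligase known from meiotic crossing over, was at 12.40, 12.56 and 12.48 in number 1 against 11.03 to 11.66 (difference 1.13, SE 0.11, adjusted p = 0.0024). Nfil3, a transcription factor named for its regulation by interleukin-3, was at 11.15, 11.38 and 11.37 against 10.18 to 10.74 (difference 0.83, SE 0.08, adjusted p = 0.0024). Both were above every other array. Map3k1, a kinase above JNK, differed by 0.84 (SE 0.07, adjusted p = 0.00193) and Banp, a nuclear matrix-associated protein, by 0.85 (SE 0.07, adjusted p = 0.00169), and both kept their call without each array in turn. Gipr, the receptor of an incretin hormone, was higher by 0.71, Map11 by 0.70 and Ifnz by 0.87; Ifnz belongs to an interferon family with near-identical copies, so its probe set may report several genes.

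Among lower genes, Dgke, a diacylglycerol kinase, was at 7.91, 7.75 and 8.05 in number 1 against 8.65 to 8.88 (difference -0.85, SE 0.06, adjusted p = 0.00162). The arrays of number 1 were all below the others, and the call held without each array in turn. Pdcd4, an inhibitor of translation initiation, was lower by 0.94 (SE 0.15, adjusted p = 0.0137), Ptpn22, a phosphatase of antigen receptor signalling, by 0.83 (adjusted p = 0.00455) and Anxa1, annexin A1, by 0.73 (adjusted p = 0.00645). The growth factor gene Csf1 was lower by 0.54 (adjusted p = 0.00778) and the chemokine gene Ccl9 by 0.42 (adjusted p = 0.0267). Csf1 and Ccl9 were the 2 lower of 29 cytokine and chemokine genes (6.9%, beside 3.86% of all genes). Klrb1f (-0.73) and Uprt (-0.68) complete the lowest 12. H2bc4, a histone gene, was lower by 0.58, although histone genes share long stretches of sequence and its probe set may not be specific.

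Of 297 microRNA genes measured, 2 (0.673%) were higher and 9 (3.03%) lower (all genes 2.28% and 3.86%). Their median log2 signal was 6.77. The 4985 genes of lowest signal, with a median of 6.20, had 0.241% lower, and the next 4984, with a median of 7.55, had 0.662% lower. Whether microRNA genes differ as a class was not tested. Mir340 and Mir15b were among the 12 highest and 12 lowest named genes. The arrays read probe sets on the precursor or host transcript, so the mature forms below, from RefSeq on GRCm38.p6, show which guide RNAs each gene encodes and were not themselves measured; capitals mark the seed, bases 2 to 8.
mmu-miR-340-5p, chr11:50069720-50069741, plus strand: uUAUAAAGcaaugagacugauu
mmu-miR-340-3p, chr11:50069762-50069783, plus strand: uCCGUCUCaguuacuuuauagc
mmu-miR-15b-5p, chr3:69009775-69009796, plus strand: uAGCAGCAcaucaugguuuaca
mmu-miR-15b-3p, chr3:69009813-69009834, plus strand: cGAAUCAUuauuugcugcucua
The 4 seeds differ, and that of miR-15b-5p is the seed of the miR-15 and miR-16 family. Mir340 was at 7.59, 7.38 and 7.95 in number 1 against 6.57 to 7.31 (difference 0.67, SE 0.08, adjusted p = 0.00555). Mir15b was at 6.12, 6.09 and 5.75 against 6.39 to 7.28 (difference -0.73, SE 0.18, adjusted p = 0.0436). Both genes were apart in all arrays, and both lost their call without BCR-RET replicate 1 (adjusted p = 0.0806 and 0.268). Leaving out 1 array in turn, the call of Mir340 was lost in 2 of 9 fits and that of Mir15b in 6 of 9. Mir15b is among the 4985 genes of lowest signal.

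The lists ordered by their medians set these groups beside each other. Hypoxia (0.13) and immediate early genes (0.10) had the highest medians, and cholesterol synthesis (-0.16) and granulocyte markers (-0.11) the lowest, among lists with over 1 gene measured. The 3 fusions lay on 1 side of 0 in each of these 4 lists, which is not particular to them. The same was seen in other lists, such as lysosome and autophagy (-0.07, -0.06 and -0.11 in BCR-ABL, BCR-RET and FGFR1OP-RET) and NRF2 targets (-0.08, -0.10 and -0.05).

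**Figure D5:**
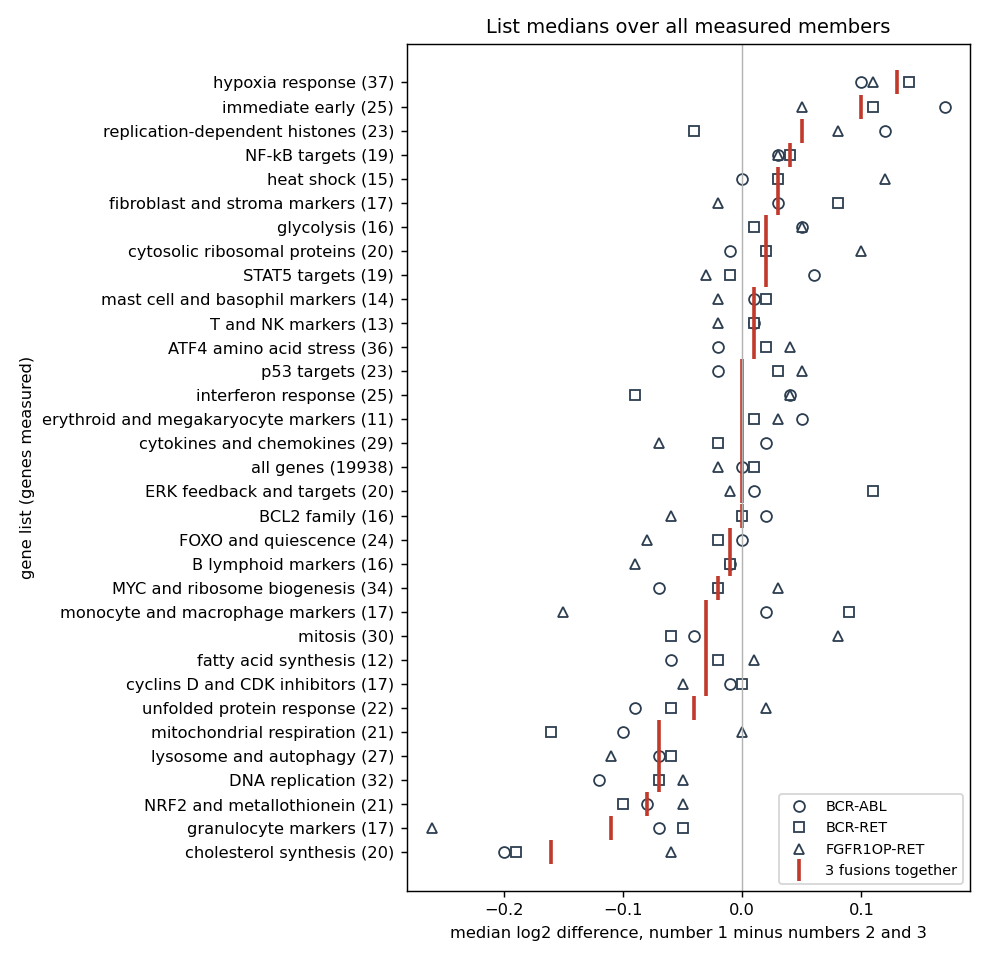
Median log2 difference, number 1 minus numbers 2 and 3 (x axis), over all measured members of each list with over 1 member (y axis, with the number of genes), for each fusion (open shapes) and for the fusions together (bars). Hypoxia response at 0.13 and cholesterol synthesis at -0.16 are the extremes, beside 0.00 for all genes.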

How the data were processed

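Gene expression was measured on 9 Affymetrix MouseGene 1.0 ST arrays of infected and sorted BaF3 cells, RNA being extracted with Trizol, per the labels' protocols. The deposited values are log2 signals of gene-level RMA from Affymetrix Expression Console, as the authors' descriptions and, per the submitters' processing notes, the listed tools say. Version, annotation and genome build were not given in the sources used here. RMA equalises the arrays' distributions, which hides a shift shared by most transcripts.

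The platform annotation names 1 gene for 21789 of the 35557 probe sets, several for 1621 and none for 12147. Of 999 genes with several probe sets, the one with the highest mean was kept, which left 19938 genes. Of these 30.1% repeated an exact value on at least 3 arrays. The number of arrays limits precision.

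Groups were taken from the titles. The main fit was limma 3.58.1 (lmFit, eBayes) in R 4.3.3 with fusion and a term for number 1, without a filter on low values, tested on simulated data first. A second fit had 3 number levels and another the interaction with fusion. Array weights used statmod 1.5.0. Alternatives and their effects are in the closing section. Members, gene lists (33) and tests were chosen with earlier results of these data known. Named genes were the 12 highest and 12 lowest differences among genes that passed and whose number 1 array was beyond both others in every fusion (predicted genes and clones left out), up to 4 genes of smallest p per list with at least 2 members past the threshold, and Ret, Bcr, Abl1 and Cep43; other members of lists that passed, and genes said to be so, were named after their values were seen. Principal components were computed on values centred per gene and fusion. Readings of genes of 1 fusion in another were added after seeing the data. Promoter and microRNA sequences are from RefSeq (GRCm38.p6); 15614 of the 19938 genes had a promoter window, matched by symbol.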

Additional observations from a re-analysis of the deposited data

Results flagged for a closer look

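Among the 72 named genes, each checked over the 6 arrays of numbers 2 and 3, 5 had 1 array far from the rest by Dixon's criterion, which chance meets in about 1 in 20 groups. In 3 of them the array was FGFR1OP-RET replicate 2: Uprt at 10.45 (nearest other array 10.93), Fdft1 at 11.61 (nearest 11.92) and Ctsb at 11.33 (nearest 11.43), each toward the number 1 arrays. Insig1 stood out in FGFR1OP-RET replicate 3, at 12.10 (nearest 11.94), and Ret in BCR-ABL replicate 3, at 7.80 (nearest 7.97). Of 12147 probe sets without a gene symbol, which the report does not use, 77 passed in a limma fit of the same form, 32 higher and 45 lower in number 1 (0.634%). The fit over the 19938 genes had 6.14% past the threshold, and the fit over all 35557 probe sets had 221. Whether these shares differ was not tested.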

How the results depend on the processing

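No paired analysis was possible because the replicate number is itself what was compared; the fusion served as the block. With the fusion left out of the fit, 144 genes passed (70 higher, 74 lower), with 4 hypoxia, 3 immediate early and 1 cholesterol member, and no gene passed for number 2 against 3. Over all probe sets 221 passed (126 higher, 95 lower). With array weights 2750 passed (856 higher, 1894 lower) and 10 cholesterol members. Number 1 against number 2 alone gave 157 (92 higher, 65 lower; 6 hypoxia, 4 immediate early, 1 cholesterol member), and against number 3 alone 1964 (1330 lower). Without the BCR-ABL or the BCR-RET arrays 0 passed in the limma fit, in any of these counts; without the FGFR1OP-RET arrays 259 higher genes passed and 6 hypoxia members. The number 2 against 3 count was 0 without any 1 fusion. Leaving out 1 array in turn gave 9 to 2791 genes (8 to 812 higher, 1 to 1979 lower), 1 to 14 hypoxia members, 0 to 9 immediate early members, 0 to 11 cholesterol members and 0 to 5 genes for number 2 against 3. It also gave 0 to 7 higher ATF4 members, 0 to 9 lower lysosome and 0 to 9 lower DNA replication members. Centring each array on its median gave 867, and filters on low or repeated values, means over probe sets and a trended, robust prior stayed within 1.5 times the count of 1224. No gene passed for the difference between fusions under any of the alternatives run. Of 68 named genes that passed, 5 kept their call without each array in turn (Ankrd37, Banp, Map3k1, Ccng2, Dgke), and none changed sign under any alternative run. In 553 of 1426 refits of these genes the call was lost, and the cause was not tested.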
